A study of Mus musculus with 11 samples.

Results

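The genes described here encode the nuclear subunits of the mitochondrial respiratory chain and the ATP synthase, with the assembly factors of complex I that share the Nduf name. They were taken by symbol: every probe whose transcript accession maps to a mouse gene starting with Nduf, Uqcr, Atp5 or Cox4 to Cox8, or to Sdha, Sdhb, Sdhc, Sdhd, Cyc1 or Cycs, pseudogenes excluded. This gave 95 genes of 20284 named on the array, carried by 128 probes, and each gene was read from its brightest probe. No expression difference was used in the choice, although earlier results of these data were known. A further 6 RefSeq genes that fit the symbols had no probe named for them (Ndufs6b, Cox6c2, Ndufa11b, Ndufb1, Ndufb4b and Ndufb4c).

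Complexes I to IV lie in the inner mitochondrial membrane. Complexes I and II pass electrons from NADH and succinate to ubiquinone, complex III passes them to cytochrome c and complex IV to oxygen, and the proton gradient built by complexes I, III and IV drives the ATP synthase. Most subunits are encoded in the nucleus, but mitochondrial DNA encodes a core set of its own, so a working chain needs both genomes and many assembly factors. Hair cells and the supporting cells around them are polarised epithelial cells of the cochlea.

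Total RNA had been hybridized to single-colour Agilent arrays for 3 kinds of sample. Otospheres (OS, 6 arrays) are floating spheres grown from dissociated cochlear sensory epithelium of ICR mice on postnatal day 1, here secondary spheres at passage 1, cultured for 4 or 5 days before and after the passage in serum-free medium with bFGF and IGF1. The cochlear sensory epithelium (CSE, 3 arrays) was dissected from ICR mice of the same age, with 20 cochleae pooled per preparation, and is a mixture of hair cells, supporting cells and whatever other cells remained attached. Embryonic stem cells (ESCs, 2 arrays) were the lines G4-2 and D3 at passage 13, kept without feeder cells in serum and LIF, so line and replicate are the same thing in that group. The sphere medium also held heparan sulfate and ampicillin, and the spheres were filtered by size before RNA isolation to keep solid ones. No transgene or drug under study is named for any group. No strain was given for the ESCs, so their genetic background may differ from that of the ICR mice.

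OS1 with OS2 and OS4 with OS5 differed by no more than the noise between spots of a probe and were each averaged into 1 sample, written OS1/2 and OS4/5. Their between-array spread was 1.00 and 0.445 times the spot noise, against at least 1.76 times in every other pair, and the limit on this ratio was set after the data were seen. The comparisons therefore rest on 4 otosphere, 3 CSE and 2 ESC samples, and the few samples limit the precision. Slide 1 held ES1, OS1/2, OS3, CSE1 and CSE2, and slide 2 held ES2, OS4/5, OS6 and CSE3. Between 55.1% and 71.6% of non-control spots per array were well above background, and 92 of the 95 genes were so on all 11 arrays. The summed level of 6 pluripotency markers was 17.5 to 17.7 (log2) in ESCs and 10.3 to 11.7 in the other samples, and that of 12 supporting cell markers 15.60 to 16.02 in otospheres, 17.3 to 17.4 in CSE and 13.1 to 13.4 in ESCs. Not every marker followed its sum. Set against ESCs at adjusted p under 0.05 (limma), 7 supporting cell markers rose and 3 fell in otospheres. In CSE 11 rose and 1 fell. Of the pluripotency markers, 5 fell in each cochlear group. In each, 1 had a difference above 0 that did not pass, at 1.44 in otospheres and 1.65 in CSE. The 12 hair cell markers summed to 11.4 to 13.3 in otospheres, 14.6 to 14.7 in CSE and 11.1 to 11.3 in ESCs. Erythroid markers summed to 16.94 to 17.98 in CSE and 8.42 to 8.98 in otospheres, 7 of 8 neuronal, 4 of 7 endothelial and 5 of 7 macrophage markers were lower in otospheres than in CSE, and 7 of 8 proliferation markers were lower in both cochlear groups than in ESCs. Their part in the results below was not tested. In such bulk samples, fewer cells of a type and less RNA per cell cannot be told apart.

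Short stretches before the start sites of 5 of the genes are shown, because nuclear respiratory genes are known targets of NRF1 and of the ETS factor GABPA. RefSeq promoter windows (GRCm38.p6, all of 1 length around the start site) were given for 77 of the 95 genes. The NRF1 letters CGCATGCG, which read the same on both strands, were found in 12 of the 77 (15.6%), and in 2.07% of the promoters of 27025 genes. The ETS letters CCGGAAG, searched on both strands, were found in 19 (24.7%), against 9.93% of all promoters, and the ERR letters TGACCTTG, also on both strands, in 4 (5.19%), against 1.76%. None of these strings lies within another. In the lines below the capitals mark the NRF1 letters in the first pair and the ETS letters, read on either strand, in the rest.
Cycs: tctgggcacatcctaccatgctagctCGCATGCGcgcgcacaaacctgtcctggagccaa
Cox6a1: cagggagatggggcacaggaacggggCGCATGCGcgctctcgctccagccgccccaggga
Uqcr11: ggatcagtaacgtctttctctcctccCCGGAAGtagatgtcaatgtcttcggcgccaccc
Uqcrh: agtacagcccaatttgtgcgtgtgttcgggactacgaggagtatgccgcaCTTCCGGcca
Atp5e: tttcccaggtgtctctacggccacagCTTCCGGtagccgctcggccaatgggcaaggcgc
Each run of 60 bases is on the minus strand, 5′ to 3′: Cycs (cytochrome c) at chr6:50566597-50566656, Cox6a1 at chr5:115349086-115349145, Uqcr11 at chr10:80406854-80406913, Uqcrh at chr4:116075071-116075130 and Atp5e at chr2:174464170-174464229. The capitals begin 61, 161, 66, 10 and 102 bases before the start site in that order. Uqcrh and Atp5e are among the genes that differed between otospheres and ESCs below, whereas Cycs, Cox6a1 and Uqcr11 passed the threshold in no comparison. Of the genes higher in otospheres than in ESCs, 10 had a promoter window, of which 0 held the NRF1 letters and 2 the ETS letters. Of those lower, 7 had a window, with 1 and 0.

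The first question was how far otospheres had moved from the tissue they were grown from. Between otospheres and CSE few of these genes passed the threshold: 1 of 95 was higher in otospheres, Ndufab1, and 0 were lower (limma, Benjamini-Hochberg over all 47997 probes kept, threshold 0.05). Across all probes 4.84% were higher and 6.19% lower, 11% together, and 12.5% of those with a mean log2 signal of at least 12. Without adjustment, 6 of the 95 were higher and 8 lower at the same threshold. The median difference over the 95 genes was 0.02 on the log2 scale, and 0.02 over all probes. The difference of 92 genes was under 2-fold, and for 75 the whole 95% interval stayed within 2-fold, while for the remaining genes the interval reached past 2-fold in at least 1 direction.

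Ndufab1 encodes the mitochondrial acyl carrier protein, a subunit of complex I that also serves fatty acid and iron-sulphur cluster synthesis. Its log2 signal was 10.26 in OS1/2, 9.82 in OS3, 9.37 in OS4/5 and 9.36 in OS6, 8.46, 7.79 and 8.64 in CSE1, CSE2 and CSE3, and 10.16 and 10.64 in ES1 and ES2. All 4 otosphere samples lay above all 3 CSE samples, and the 3 CSE samples below both ESC samples. The difference between otospheres and CSE was 1.40 ± 0.29 (log2, SE; adjusted p = 0.0166, 2.64-fold), with 1.91 on slide 1 and 0.72 on slide 2. It was 1.49 without CSE1 (adjusted p = 0.051) and 1.15 without CSE2 (adjusted p = 0.055), so the call was lost without either, and the count fell to 0. With other samples left out the count was 2 without ES1, 2 without ES2 and 3 without OS3, and the count of lower genes was 1 without ES1, ES2, OS3 or CSE2. CSE lay below ESCs by -2.10 ± 0.35 (adjusted p = 0.00208), a call that held without each sample in turn.

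Representatives of each complex did not pass the threshold between otospheres and CSE. Ndufs1, the large iron-sulphur core subunit of complex I, was at 13.24, 12.98, 13.07 and 12.80 in the otosphere samples and 13.45, 13.26 and 13.003 in CSE. Sdha, the flavoprotein of complex II, was at 13.61, 13.58, 13.41 and 13.23 against 13.83, 13.88 and 13.55. Atp5a1, the alpha subunit of the ATP synthase, was at 15.29, 15.08, 15.36 and 15.17 against 15.83, 15.66 and 15.49. The otosphere and CSE ranges overlapped for Ndufs1 and Sdha and lay just apart for Atp5a1. In that order the differences were -0.22 (95% interval -0.66 to 0.23), -0.29 (-0.70 to 0.11) and -0.43 (-0.83 to -0.03), with adjusted p of 0.649, 0.421 and 0.182. Cytochrome c, Cycs, differed by 0.32 (-0.13 to 0.77, adjusted p = 0.436). Cox5a, a complex IV subunit without known tissue forms, was at 15.81, 15.44, 16.07 and 15.86 in otospheres and 15.11, 15.06 and 15.16 in CSE. The groups did not overlap, with a difference of 0.68 ± 0.19 that missed the threshold (adjusted p = 0.0554). Groups that did not overlap were found for 13 of the 95 genes and for 23.4% of all probes.

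**Figure D1:**
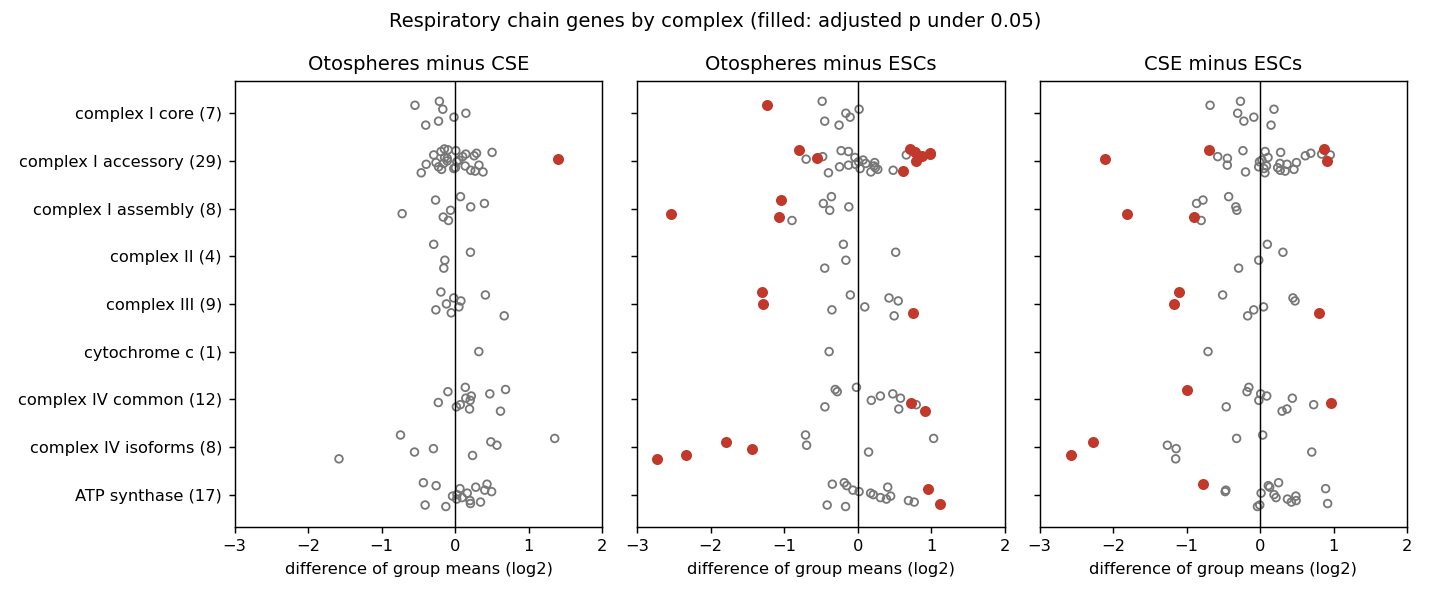
Differences of group means on the log2 scale after quantile normalization for the 95 genes, 1 point per gene, by complex (number of genes in parentheses) for the 3 comparisons; filled points had adjusted p under 0.05. Otospheres and CSE differed at 1 filled point, Ndufab1, while 24 and 14 genes differed from ESCs, and the filled points right of 0 in the ESC panels lost their call when arrays were scaled to the 75th percentile.

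Against ESCs the genes split. In otospheres 12 of 95 were higher and 12 lower. Of all probes, 12.1% rose and 15.6% fell (27.7% together), and of the bright probes 42.4% passed the threshold. The median difference was -0.03, the same as the median of all probes (-0.03), and 83 genes differed by under 2-fold. For 40 genes the otosphere and ESC samples did not overlap, as for 46.2% of all probes. In CSE 4 were higher and 10 lower, where 13.2% and 15.6% of all probes were (28.8% together, and 38.1% of the bright probes), with a median of 0.01. For 48 genes the CSE and ESC samples did not overlap, as for 52.2% of all probes. Both comparisons share the 2 ESC samples. These shares of all probes are also the ones to set beside the quantile-normalized counts per complex and per gene list below. Of the called genes, 24 of 24 and 14 of 14 had the same sign on each slide alone. The same samples gave the calls, and groups that do not overlap cannot differ in sign by slide. The signs are therefore no separate check of the calls.

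These counts depended on how the arrays were put on 1 scale. When each array was scaled to its 75th percentile instead of quantile-normalized, the median of all probes moved to -0.28 for otospheres and -0.25 for CSE against ESCs, and that of 4652 other probes with a mean log2 signal of at least 12 moved to -0.82 and -0.90. The genes' medians moved with them to -0.79 and -0.97. Then 0 genes were called higher in otospheres and 1 in CSE (Cox8b, which was at background in ESCs), and 33 and 36 were called lower. Of the 12 genes higher in otospheres, 8 changed sign and the remaining 4 were above 0 without a call, and all 4 higher in CSE changed sign. All 12 and all 10 lower calls were called lower again. Because this scaling moved other bright probes down as well, it could hardly remove a lower call and is no separate check of that direction. The higher calls below are relative to the quantile-normalized distribution.

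**Figure D2:**
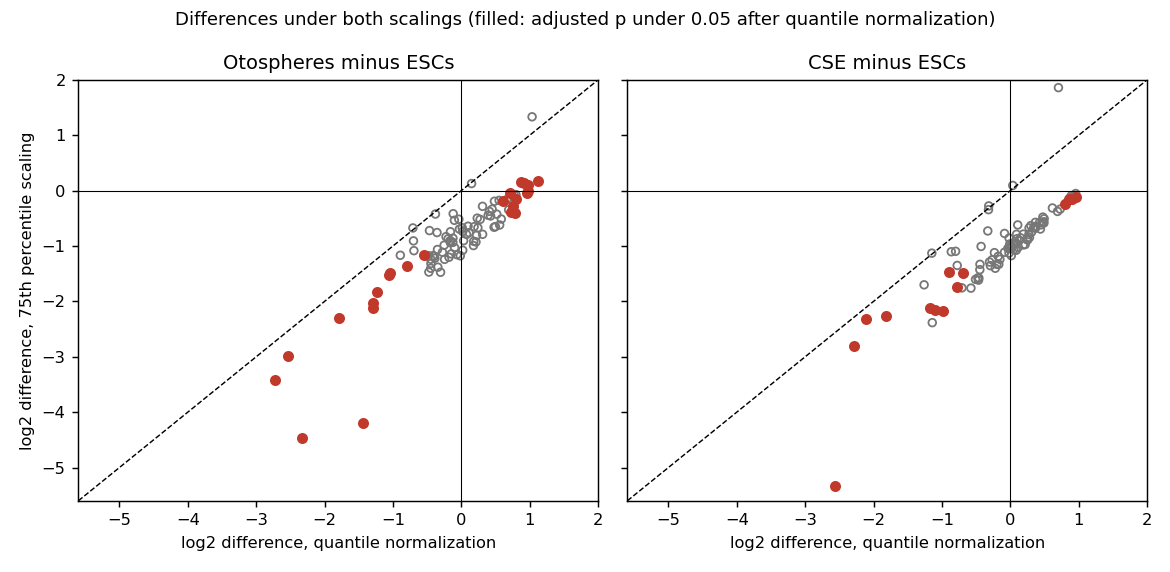
Differences from ESCs of the 95 genes after quantile normalization (horizontal, log2) and after 75th percentile scaling (vertical, log2), with filled points for genes called after quantile normalization and a dashed line where both are equal. Most points lie below the line, by about the shift of other bright probes (medians of -0.82 and -0.90), and the filled points right of 0 end near or below 0 on the vertical axis.

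The lower calls began with the assembly of complex I. All 8 assembly factors with an Nduf name had lower means in otospheres and in CSE than in ESCs, and 3 and 2 of them passed the threshold. Ndufaf6, needed to build the complex I module in the membrane, was at 11.74 and 11.11 in ES1 and ES2, 8.90, 8.56, 9.04 and 9.06 in the otosphere samples (OS1/2, OS3, OS4/5, OS6), and 9.37, 9.64 and 9.83 in CSE1 to CSE3. No sample of the cochlear groups reached the lower ESC line. The differences were -2.54 ± 0.24 (adjusted p = 0.00012, 5.80-fold) and -1.81 ± 0.26 (adjusted p = 0.000882, 3.52-fold), and both calls held under all 20 alternatives tried. Within slides the otosphere difference was -3.01 and -2.06. Otospheres lay below CSE by -0.72, which missed the threshold (adjusted p = 0.0687).

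Ndufaf7, a methyltransferase that acts early in complex I assembly, was at 12.30 and 11.70 in ESCs, 10.86, 10.57, 11.12 and 11.17 in otospheres and 11.14, 11.11 and 11.03 in CSE. All cochlear samples lay below both ESC samples. The difference between otospheres and ESCs was -1.07 ± 0.24 (adjusted p = 0.00881), and without ES1 it was -0.76 (adjusted p = 0.075), so the call was lost. In CSE Ndufaf7 was lower by -0.90 ± 0.25 (adjusted p = 0.0238), a call lost without ES1 (-0.60, adjusted p = 0.16), CSE1 (-0.93), CSE2 (-0.91) or CSE3 (-0.87). Ndufaf2, another assembly factor, fell by 1.05 in otospheres on the log2 scale (adjusted p = 0.0173), and its call was lost without ES2 (-0.72).

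Of 9 complex III genes, Cyc1 and Uqcrc1 were lower than in ESCs in both cochlear groups and Uqcrh was higher after quantile normalization, while 6 passed the threshold in neither direction. Cyc1, cytochrome c1, had nearly equal signals in the ESC lines, 14.63 and 14.63, and was at 13.36, 13.25, 13.28 and 13.46 in otospheres and 13.22, 13.62 and 13.76 in CSE. Every cochlear sample lay below both ESC samples, by -1.30 ± 0.19 in otospheres (adjusted p = 0.00103, 2.45-fold) and -1.10 ± 0.20 in CSE (adjusted p = 0.00318, 2.14-fold). These calls held under all 20 alternatives, and on slides 1 and 2 alone the differences were -1.33 and -1.26 in otospheres and -1.21 and -0.87 in CSE.

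Uqcrc1, a core protein of the complex III body, was at 13.70 and 13.85 in ESCs, 12.15, 11.90, 12.89 and 13.001 in otospheres and 12.40, 12.46 and 12.95 in CSE. The otosphere samples of slide 2 were higher than those of slide 1. The differences from ESCs were -1.29 ± 0.34 (adjusted p = 0.0191) and -1.17 ± 0.35 (adjusted p = 0.0354). The otosphere call was lost without ES1 (-1.36, adjusted p = 0.066) and without ES2 (-1.22, adjusted p = 0.096), and the CSE call without ES1 (-1.25), ES2 (-1.10), CSE1 (-1.07) or CSE2 (-1.10). Uqcrh, the hinge protein that binds cytochrome c1, was at 14.90 and 15.23 in ESCs, 15.74, 15.76, 16.12 and 15.62 in otospheres and 15.97, 15.66 and 15.96 in CSE. It was higher after quantile normalization, by 0.75 ± 0.20 (adjusted p = 0.024) and 0.80 ± 0.22 (adjusted p = 0.0218), and turned to -0.28 and -0.24 with 75th percentile scaling. The otosphere call was lost without ES1 (0.58) or OS4/5 (0.64) and in the mean over both probes (0.68, adjusted p = 0.0599), and the CSE call without ES1 (0.64), CSE1 (0.75) or CSE3 (0.76).

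Among accessory subunits of complex I, small proteins around the core that stabilise it, 7 of 29 were higher in otospheres than in ESCs and 2 lower (Ndufa9 and Ndufa10), and in CSE 2 were higher and 2 lower. Ndufa10 was lower by -0.80 in otospheres (adjusted p = 0.0216; lost without ES1 at -0.63 or OS4/5 at -0.73). The Ndufa9 call (-0.55, adjusted p = 0.0452) and those of Ndufa10 in CSE (-0.70, adjusted p = 0.0453) and of Ndufs5, higher in otospheres (0.61, adjusted p = 0.0476), were each lost in 7 or more of 9 fits without 1 sample, with values of -0.44 to -0.66, -0.53 to -0.87 and 0.54 to 0.67. Scaled to the 75th percentile, 0 of 29 were higher and 5 lower in otospheres, and 0 and 6 in CSE. Ndufa2 was at 14.64 and 14.76 in ESCs, 15.29, 15.68, 15.92 and 15.83 in otospheres and 15.38, 15.20 and 15.59 in CSE. Ndufa6, a subunit of the LYR motif family that binds the acyl carrier protein, was at 13.08 and 13.44, then 13.76, 14.32, 14.42 and 14.02, and 13.86, 13.77 and 13.99. Both had all cochlear samples above both ESC samples after quantile normalization. Their differences between otospheres and ESCs were 0.98 ± 0.22 (adjusted p = 0.00894) and 0.87 ± 0.22 (adjusted p = 0.0185), against -0.00016 and 0.16 with 75th percentile scaling, and both calls were lost without ES1 (0.92 and 0.69).

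Ndufa1 and Ndufb11, both in the membrane part of complex I, were the accessory subunits called higher in both cochlear groups after quantile normalization. Ndufa1 was at 13.73 and 13.90 in ESCs, 14.42, 14.57, 14.76 and 14.37 in otospheres and 14.70, 14.45 and 14.87 in CSE. The differences were 0.71 ± 0.19 (adjusted p = 0.022) and 0.86 ± 0.20 (adjusted p = 0.0115), and -0.04 and -0.16 with 75th percentile scaling. The otosphere call was lost without ES1 (0.63), ES2 (0.80) or OS4/5 (0.64), and the CSE call without ES1 (0.78). Ndufb11 was at 14.94 and 14.32 in ESCs, 15.09, 15.54, 15.52 and 15.55 in otospheres and 15.51, 15.47 and 15.61 in CSE. It differed by 0.79 (adjusted p = 0.0273) and 0.90 (adjusted p = 0.0191), and by -0.15 in each with 75th percentile scaling. Its second, much dimmer probe differed by -0.42 and -0.26, and its calls were lost when probes were averaged. They were lost also without ES2 (0.48 and 0.59), in otospheres without OS3 (0.76), OS4/5 (0.76) or OS6 (0.75), and in CSE without CSE1 (0.91) or CSE3 (0.86). Ndufa3 and Ndufa13 were higher in otospheres by 0.98 (adjusted p = 0.0313) and 0.78 (adjusted p = 0.0478), and at 0.10 and -0.41 with the other scaling. Ndufa3 lost its call without ES2 (0.73), OS4/5 (0.85) or OS6 (0.97), and Ndufa13 without ES2 (0.53), OS1/2 (0.85), OS4/5 (0.65), OS6 (0.74), CSE1 (0.78) or CSE3 (0.78).

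**Figure D3:**
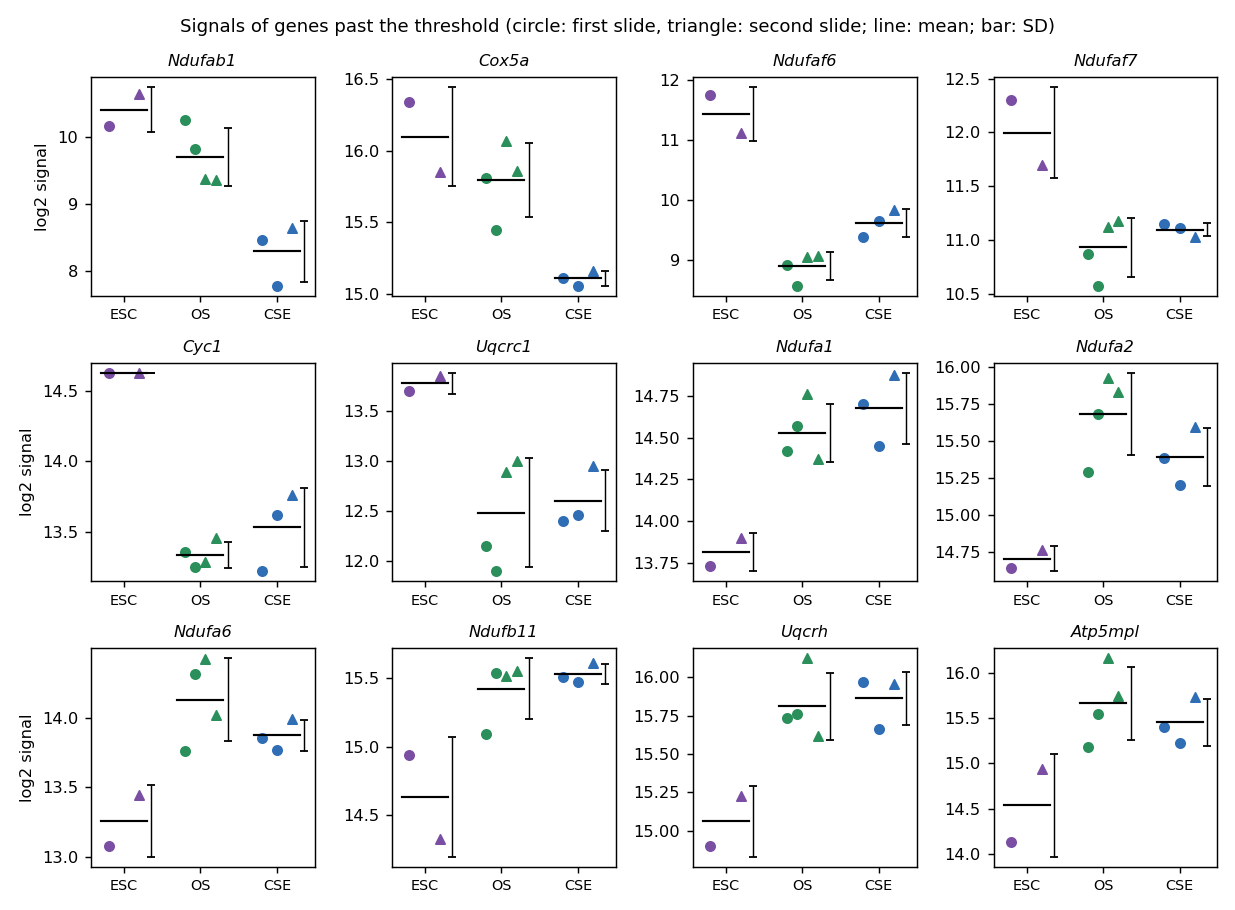
Normalized log2 signals of 12 genes past the threshold in at least 1 comparison, 1 point per sample, for ESCs, otospheres (OS) and CSE; circles are slide 1, triangles slide 2, lines the group means and bars the SD. Cyc1 and Ndufaf6 are high in both ESC samples, Ndufab1 is low in the 3 CSE samples (7.79 to 8.64), and the genes from Ndufa1 to Atp5mpl are higher in cochlear samples after quantile normalization and had no call in 75th percentile scaling, where most were below 0.

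Complex II, which also works in the tricarboxylic acid cycle, passed the threshold with 0 of its 4 genes in each comparison (limma; without adjustment 1 was higher in otospheres than in ESCs and 0 in the other comparisons). Sdha was at 13.86 and 13.44 in ESCs, within the range of the cochlear samples given above, with differences of -0.19 ± 0.20 and 0.10 ± 0.21. Scaled to the 75th percentile, 2 of the 4 were lower in otospheres and 1 in CSE.

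For the ATP synthase, otospheres had 2 of 17 genes above ESCs and 0 below (without adjustment 3 and 1), and 0 were higher and 1 lower in CSE (without adjustment 2 and 1). The shares of all probes were 12.1% and 15.6% in otospheres and 13.2% and 15.6% in CSE. Atp5mpl, a small proteolipid of the membrane part, was at 14.13 and 14.94 in ESCs, 15.18, 15.55, 16.16 and 15.75 in otospheres and 15.41, 15.22 and 15.73 in CSE. Atp5e, the epsilon subunit of the central stalk, was at 14.74 and 14.94, then 15.30, 15.49, 16.20 and 16.18, and 15.64, 15.46 and 16.09. Both were highest in the otosphere samples of slide 2, and all cochlear samples lay above both ESC samples. The otosphere differences were 1.12 ± 0.32 (adjusted p = 0.0278) and 0.95 ± 0.31 (adjusted p = 0.0473), and 0.16 and -0.05 with 75th percentile scaling. Atp5mpl lost its call without ES1 (0.72), OS4/5 (0.96) or OS6 (1.095), and Atp5e without any 1 of 7 samples, ES1 (0.86), ES2 (1.05), OS4/5 (0.82), OS6 (0.83), CSE1 (0.95), CSE2 (0.95) and CSE3 (0.95). Atp5b, the catalytic beta subunit, was lower in CSE than in ESCs by -0.78 ± 0.21 (adjusted p = 0.0224; lost without ES1 at -0.67, CSE1 at -0.80 or CSE3 at -0.71), while Atp5a1 differed by 0.25 (adjusted p = 0.436).

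Complex IV has subunits with alternative forms, and most of its genes called lower than in ESCs were such forms. Of 8 genes for restricted or condition-dependent forms, 4 were lower in otospheres and 2 in CSE, with medians of -1.07 and -1.15. Of the 12 common subunits, 2 were higher and 0 lower in otospheres (without adjustment 4 and 1), and 1 was higher and 1 lower in CSE. The shares of all probes were 12.1% and 15.6% in otospheres and 13.2% and 15.6% in CSE. With 75th percentile scaling 0 common subunits were higher and 3 lower in each group.

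Cox8c, a form of subunit VIII best known from testis, was at 7.69 and 7.18 in the ESC lines, 4.72, 4.97, 5.52 and 5.21 in otospheres and 4.83, 5.03 and 4.74 in CSE. It was well above background on both ESC arrays, on 2 of 6 otosphere arrays and on no CSE array. ESCs were at least 5.64-fold higher than CSE (adjusted p = 0.000181), a bound set by the background. Otospheres were lower than ESCs too (-2.33 ± 0.25, adjusted p = 0.000229), but with 4 of 6 arrays not well above background the size was not settled, and it ran from -1.60 to -4.46 over the alternatives. Both calls held under all 20 of them. Cox8a, the common form, was at 16.01 and 16.25 in ESCs, 16.63, 16.58, 16.96 and 16.59 in otospheres and 16.52, 16.29 and 16.67 in CSE, with no call.

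Cox6b2 and Cox7b2, likewise known from testis, differed between ES1 and ES2 themselves, whose line and slide cannot be told apart. Cox6b2 was at 13.18 in ES1 and 10.94 in ES2, 10.18, 10.25, 10.13 and 10.51 in otospheres and 9.72, 9.21 and 10.42 in CSE. Cox7b2 was at 5.55 in ES1 and 7.23 in ES2, 4.96, 4.94, 5.02 and 4.87 in otospheres, where 0 of 6 arrays detected it well above background, and 5.41, 5.27 and 5.05 in CSE. The ESC sample that was high for one gene was the lower for the other. Cox6b2 was lower than in ESCs by -1.80 ± 0.55 in otospheres (adjusted p = 0.039) and -2.28 ± 0.58 in CSE (adjusted p = 0.0169). Without ES1 these fell to -0.68 and -1.16 and both calls were lost, and the otosphere call was lost also without OS1/2 (-1.76), OS3 (-1.79), OS4/5 (-1.75), OS6 (-1.88) or CSE1 (-1.80), and the CSE call without CSE2 (-1.99). With slide as a block the otosphere difference kept its size but not its call (adjusted p = 0.0512). For Cox7b2 the mean of the ESC samples was at least 2.71-fold higher than otospheres (adjusted p = 0.0211). Without ES2 the difference was -0.60 and the call was lost, so the bound does not hold for ES1 alone. The common forms Cox6b1 and Cox7b differed from ESCs by 0.31 and 0.80 in otospheres without a call, and Cox7b too was far apart between the ESC samples, at 13.36 in ES1 and 15.20 in ES2.

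Ndufa4 and Ndufa4l2 are paralogous; Ndufa4 is a subunit of complex IV despite its name, and Ndufa4l2 is known as a target of hypoxia signalling. Ndufa4l2 was at 9.73 and 9.28 in ESCs, 6.63, 8.77, 5.90 and 5.80 in otospheres and 8.75, 7.27 and 9.05 in CSE. OS3 was as high as CSE while the other otosphere samples were lower, so the otosphere SD was 1.38. The difference from ESCs was -2.73 ± 0.82 (adjusted p = 0.036), lost without ES1 (-2.51), ES2 (-2.95), OS1/2 (-2.68), OS4/5 (-2.44), OS6 (-2.40) or CSE1 (-2.73), and that from CSE was -1.58 ± 0.72 (adjusted p = 0.244). Ndufa4 was at 13.72 and 13.81 in ESCs, 14.42, 14.46, 15.17 and 14.67 in otospheres and 13.92, 14.03 and 14.25 in CSE. All 4 otosphere samples were above both other groups. It was higher in otospheres than in ESCs by 0.91 ± 0.24 (adjusted p = 0.0187; 0.13 with 75th percentile scaling), a call lost without ES1 (0.87) or ES2 (0.96), and higher than CSE by 0.62 with no call (adjusted p = 0.106).

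Cox6a2, Cox7a1 and Cox8b are the heart and skeletal muscle forms. Cox6a2 was at 6.48 and 6.01 in ESCs, 6.54, 6.24, 7.80 and 8.52 in otospheres and 5.96, 6.10 and 5.70 in CSE. The otosphere samples of slide 2 stood above all others, and the difference from CSE was 1.35 ± 0.51 (adjusted p = 0.144). A list of 8 skeletal muscle markers summed to 10.1 to 13.6 in otospheres, 9.11 to 9.29 in CSE and 11.05 to 12.53 in ESCs. One of these markers, the muscle actin gene Acta1, was at 10.55, 9.07, 13.005 and 13.51 in otospheres and 5.75 to 6.32 in CSE, a difference of 5.44 (adjusted p = 0.0178). The 8 markers were split between otospheres and CSE, with 4 differences above 0, 4 below, a median of -0.03 and only Acta1 called. Against ESCs 1 was above 0 in otospheres and 7 were below. Of the 8 markers, 2 were not above background on any otosphere array and 4 were on every one, and their part in the Cox6a2 signal was not tested. In a wider list of 16 muscle genes, otospheres had 1 above CSE and 0 below, 0 and 6 in otospheres against ESCs, and 1 and 6 in CSE against ESCs. Cox7a1 differed by 0.57 between otospheres and CSE, Cox8b by -0.55, both without a call. With 75th percentile scaling Cox8b was called, at -1.73 between otospheres and CSE (limma, adjusted p = 0.0136) and 1.86 between CSE and ESCs (adjusted p = 0.00799). Cox8b was well above background on 3 of 3 CSE arrays, 2 of 6 otosphere arrays and neither ESC array, and CSE was at least 1.63-fold higher than ESCs (adjusted p = 0.0598).

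Cox4i2, the form tied to lung and to low oxygen, was at 8.41, 7.44, 7.71 and 8.40 in otospheres and 8.77, 8.19 and 9.25 in CSE (difference -0.74, adjusted p = 0.223), while Cox4i1 differed by 0.14. Cox6a1 and Cox7a2 differed by 0.47 and 0.20 between otospheres and CSE with no call. Cox7a2l, a factor that joins complexes III and IV in supercomplexes, was at 15.57 and 14.93 in ESCs, 15.71, 15.85, 16.30 and 16.02 in otospheres and 16.20, 16.17 and 16.24 in CSE. Its CSE values were the closest together, and it was higher than in ESCs after quantile normalization by 0.73 ± 0.23 in otospheres (adjusted p = 0.0465) and 0.96 ± 0.25 in CSE (adjusted p = 0.0176), but at -0.38 and -0.12 with 75th percentile scaling. The dimmer probes gave 0.60 and 0.03 in otospheres, the mean over the probes was 0.45 (adjusted p = 0.188), and with slide as a block the otosphere call was lost (adjusted p = 0.0566). Without ES2 the differences were 0.41 and 0.64 and both calls were lost, and the otosphere call was lost also without OS3 (0.77), OS4/5 (0.62), OS6 (0.71), CSE1 (0.73), CSE2 (0.73) or CSE3 (0.73). Cox5a was lower in CSE than in ESCs (16.34 and 15.85) by -0.99 ± 0.23 (adjusted p = 0.0112), lost without ES1 (-0.75, adjusted p = 0.078), and in otospheres by -0.31 (adjusted p = 0.356).

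**Figure D4:**
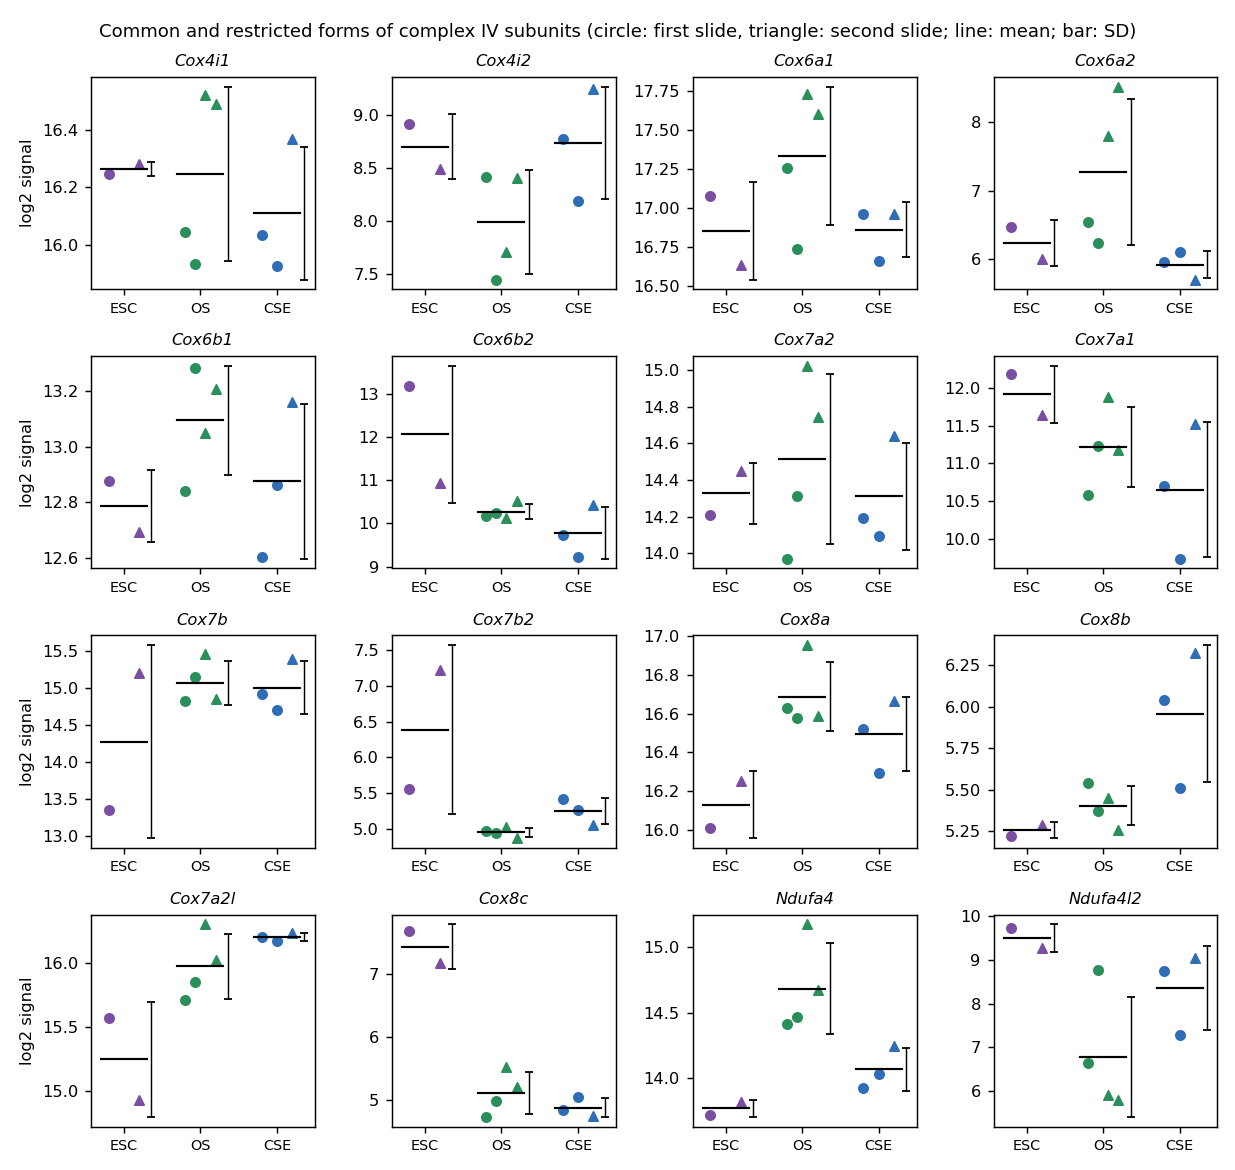
Normalized log2 signals of common and restricted forms of complex IV subunits, with Ndufa4 and Ndufa4l2, 1 point per sample for ESCs, otospheres (OS) and CSE; circles are slide 1, triangles slide 2, lines the group means and bars the SD. Cox8c is high in both ESC samples (7.69 and 7.18), Cox6b2 and Cox7b2 each in 1 of them, and Cox6a2 in the otosphere samples of slide 2 (7.80 and 8.52).

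Counts against ESCs moved by over 1.5 times when single samples were left out. For otospheres the 12 higher genes became 4 without ES1, 3 without OS4/5 and 5 without OS6, and the 12 lower ones 5 without ES1 and 7 without ES2. For CSE the 4 higher genes became 2 without ES1, CSE1 or CSE3 and 7 without ES2, and the 10 lower ones 6 without CSE1.

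The 95 genes also differed in level between the samples of the first and the second slide. Each slide held different samples of a group, so slide and sample cannot be told apart. The paper reports raised hair cell markers in OS4 to OS6, which are the otosphere arrays of the second slide. Over the genes, the second slide was higher than the first by a median of 0.22 in otospheres (74 genes higher) and 0.29 in CSE (75 higher), and by -0.09 in ESCs, where the median of all probes was 0.05, 0.04 and -0.03. After each gene's mean was subtracted, the median over the genes was -0.08 in OS1/2 and -0.16 in OS3 on the first slide, and 0.14 in OS4/5 and 0.08 in OS6 on the second. It was 0.01 and -0.15 in CSE1 and CSE2 and 0.17 in CSE3. Each array was assigned to its slide from the scanner files, and otosphere and CSE samples stood on both slides, and with slide as a block the median difference between these groups was -0.02.

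**Figure D5:**
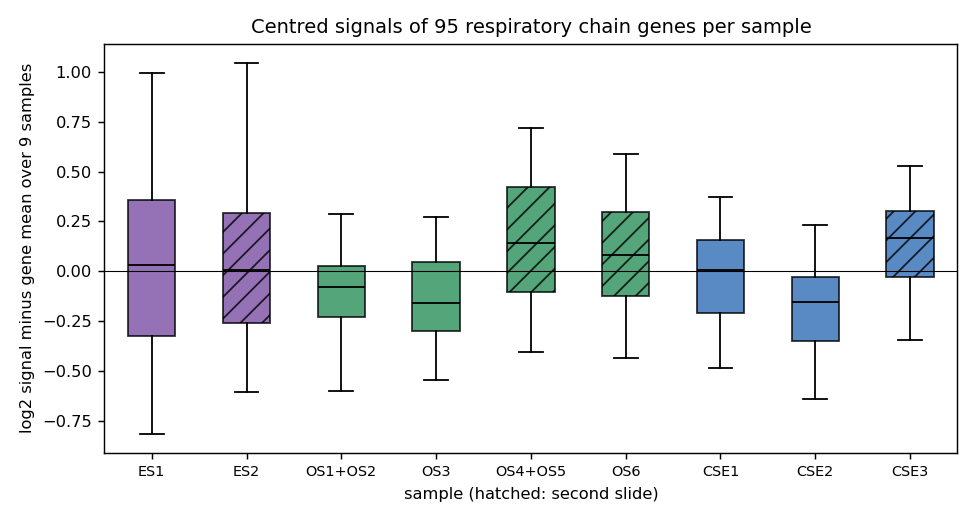
Normalized log2 signals of the 95 genes after subtraction of each gene's mean over the 9 samples; boxes give the median and quartiles over genes, whiskers the 5th and 95th percentiles, and hatched boxes are samples of slide 2. Medians lie between -0.16 and 0.17, and within otospheres and CSE the samples of slide 2 are the higher ones.

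Other nuclear genes of mitochondrial biology were read from lists. For their counts against ESCs, the shares of all probes were 12.1% higher and 15.6% lower in otospheres. In CSE they were 13.2% and 15.6%. Among probes with a mean log2 signal of at least 12, 42.4% and 38.1% were called in either direction. In a list of 15 genes for outer membrane channels, protein import and folding, 11 were lower in otospheres and 13 in CSE, 0 were higher (without adjustment 1 and 0), and the medians were -1.35 and -1.48. At the other scaling 14 and 14 were lower. Tomm20, an import receptor, was at 14.92 and 14.84 in ESCs, 13.20, 12.52, 12.92 and 12.81 in otospheres and 13.02, 13.33 and 12.90 in CSE. The prohibitin gene Phb2 was lower by -1.68 ± 0.20 in otospheres (adjusted p = 0.0004) and -1.52 ± 0.21 in CSE. Otospheres and CSE differed in 0 of the 15 (limma; without adjustment 2 were higher and 1 lower).

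Of 40 measured assembly factors outside the Nduf names, otospheres had 4 above ESCs and 14 below, and CSE had 2 and 16, with medians of -0.32 and -0.39. At the other scaling 0 were higher and 15 and 17 lower. Cox10, which makes the haem precursor of complex IV, was at 8.50 and 8.63 in ESCs, 6.83, 6.81, 6.63 and 6.52 in otospheres and 6.37, 6.78 and 6.93 in CSE, and was lower by -1.87 in both groups (adjusted p of 0.000215 and 0.000276). Otospheres were higher than CSE in 3 of the 40 and lower in 0 (without adjustment 7 and 3), where 4.84% and 6.19% of all probes were. Among the 3 were Sco2, which delivers copper to complex IV, by 0.86 ± 0.22 (adjusted p = 0.0384) and the translational activator Taco1 by 0.78 ± 0.19 (adjusted p = 0.0345). With 75th percentile scaling 0 of the 40 differed between otospheres and CSE. Of 13 enzymes of the tricarboxylic acid cycle, 5 were lower in otospheres than in ESCs, 1 was in CSE and 0 were higher (0 also without adjustment); with 75th percentile scaling 8 and 7 were lower. None passed between otospheres and CSE (0 higher and 1 lower without adjustment). Idh3a, a subunit of isocitrate dehydrogenase, was lower in both, by -1.63 ± 0.26 and -1.65 ± 0.27.

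Regulators of mitochondrial gene expression went in both directions. Of 16, otospheres had 1 above ESCs and 8 below, and CSE had 2 and 7 (1 and 8, and 2 and 8, with 75th percentile scaling). Ppargc1a, the coactivator that drives mitochondrial biogenesis in many tissues, was at 4.96 and 5.12 in ESCs, where it was not well above background on either array, 8.33, 8.70, 8.66 and 8.73 in otospheres and 9.11, 9.38 and 7.97 in CSE. It was at least 11.8-fold higher in otospheres and at least 13.7-fold higher in CSE. Its relative Pprc1 went the other way, with -2.49 ± 0.18 in otospheres (adjusted p = 2.41e-05) and -2.60 ± 0.19 in CSE (adjusted p = 2.55e-05). Esrrg, a nuclear receptor of the ERR group, was at 9.64, 9.24 and 8.06 in CSE, 5.47, 5.11, 5.50 and 4.92 in otospheres and 5.24 and 6.88 in ESCs, and was the 1 regulator that differed between the cochlear groups (-3.73 ± 0.46, adjusted p = 0.00134). The genes for the factors whose letters were searched above, Nrf1, Gabpa and Esrra, differed between otospheres and CSE by -0.16, -0.05 and 0.56 with no call. Of the 13 genes of mitochondrial DNA, 0 had a probe named for them, so the mitochondrial side of the chain was not analysed here.

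Some genes had more than 1 probe, and these did not always give the same value. Of the 95, 25 had 33 further probes. For genes called against ESCs in otospheres, 4 further probes of 3 genes were measured, 3 had the same sign and 0 passed the threshold. Cox7c was not called by its brightest probe (-0.45 in otospheres and -0.46 in CSE against ESCs), but its other probes were lower by -0.73 and -1.17 in otospheres (adjusted p of 0.012 and 0.017) and by -0.85 and -1.56 in CSE. Ndufb5 was lower in otospheres than in CSE by its dimmer probe (-0.62, adjusted p = 0.031) and by -0.39 with no call by the brighter one. Many of these genes have processed copies elsewhere in the genome, and signal from such copies was not tested.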

How the data were processed

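Total RNA labelled with Cy3 had been hybridized to Agilent SurePrint G3 Mouse GE 8×60K arrays. The deposited scanner files hold linear intensity per spot (median signal, median local background and processed signal) from Feature Extraction 10.7.3.1. A normalized log2 table made by the authors with limma was used as an alternative.

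Background was corrected by normexp with an offset of 16 (limma 3.58.1, R 4.3.3), followed by log2 and quantile normalization of the 11 arrays. Control and outlier spots were left out, and spots of 1 probe averaged. Probes had to exceed the 95th percentile of the negative controls by 10% on 2 arrays or more, which left 47997 of 55681. Median signals were 68 to 116 per array and backgrounds 32 to 38. RefSeq accessions named 26762 probes.

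Group means were compared with limma's moderated test in 1 model of the 3 groups, adjusted by Benjamini-Hochberg over all kept probes at a threshold of 0.05. Except for the ESC lines, nothing in the labels says that replicates came from separate animals or cultures, so p-values measure the spread between these samples, which may be technical. Tested on simulated data (otospheres against CSE, 47958 probes), the model recovered 1.49% of log2 differences of 0.5, 17.9% of 1 and 66.7% of 2. "At least" folds set the bright group's mean against the higher of the dim group's own signal and the lowest detectable one, per array.

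The genes named were up to 8 per direction and comparison with the largest called differences, the alternative forms of complex IV subunits, 1 core gene per complex with Cycs, and up to 4 called genes per other list and comparison. Ndufa9, Ndufa10, Ndufs5, Ndufaf2, Atp5b, Cox7c, Ndufb5, Uqcr11, Nrf1, Gabpa and Esrra were added after their values were seen. The values of 1 gene that this rule names are not reported here. The members and lists were chosen with earlier results of these data known. Alternatives were other offsets and filters, 75th percentile scaling, the deposited log2 table, the mean over a gene's probes, slide or replicate number as a block, every array kept separate, only the 2 groups compared, and leaving out each sample.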

Additional observations from a re-analysis of the deposited data

Results flagged for a closer look

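Among 44 genes tested for a single otosphere sample far from the other 3, there were 3 such cases, and chance gives about 1 in 20. Cox8a, the common form of complex IV subunit VIII, had its highest value in OS4/5 (16.96), with the others at 16.58 to 16.63. Ndufaf2, an assembly factor of complex I, had its highest in OS1/2 (11.30), with the others at 10.88 to 10.93. Ndufb11, an accessory subunit of complex I, had its lowest in OS1/2 (15.09), with the others at 15.52 to 15.55.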

How the results depend on the processing

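Of the calls of single genes, all of which were refitted, those of Cyc1, Ndufaf6 and Cox8c against ESCs in both cochlear groups and of Ndufab1 in CSE against ESCs held under all 20 alternatives, and that of Ndufab1 in otospheres against CSE under 18. The calls that held under all 20 were lower ones, for which 75th percentile scaling is no separate check. With 75th percentile scaling, otospheres against CSE gave 1 lower gene (Cox8b), where 5.36% of all probes were lower, and a median of 0.18. Otospheres against ESCs gave 0 higher, 33 lower and a median of -0.79, and CSE against ESCs 1 higher, 36 lower and a median of -0.97. Called genes that turned negative at that scaling were, in otospheres, Atp5e (-0.046), Cox7a2l (-0.38), Ndufa1 (-0.043), Ndufa13 (-0.41), Ndufa2 (-0.00016), Ndufb11 (-0.15), Ndufs5 (-0.20) and Uqcrh (-0.28), and in CSE Cox7a2l (-0.12), Ndufa1 (-0.16), Ndufb11 (-0.15) and Uqcrh (-0.24). The cause was not tested.

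For otospheres against CSE, an offset of 50 gave 2 higher and 1 lower genes, every array as a separate sample 2 and 3, a fit of only the 2 groups 2 and 1, and the mean over probes 1 lower. Otospheres against ESCs had 6 higher genes in a fit of only the 2 groups. CSE against ESCs had 7 higher with an offset of 50, 8 with slide as a block and 2 in a fit of only the 2 groups. Deviations of arrays with the same replicate number from their group means had correlations of -0.39 to 0.36. OS1 and OS2 were alike within spot noise, and OS3 and CSE3 were on different slides. These few values therefore cannot settle whether the numbers pair the arrays, and the main comparisons used no pairing. With the replicate block and every array kept separate, 0 genes were higher in otospheres and 2 in CSE than in ESCs. Leaving out 1 sample gave 0 to 3 higher and 0 to 1 lower genes for otospheres against CSE (median -0.08 to 0.12), 3 to 10 (4 without ES1) and 5 to 11 for otospheres against ESCs (median -0.10 to 0.04), and 2 to 7 and 6 to 10 for CSE against ESCs (median -0.08 to 0.09). A lone ESC sample was then assumed to vary like the other groups. The cause of these shifts was not tested. Cox7b2, Cox8b and Cox8c lay near background on some arrays, which limits their values to bounds.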
